A study of Drosophila melanogaster with 12 samples.

Results

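Tweedle, chitin-binding and chitin-processing genes were followed in fruit flies over larvae, pupae and adults of both sexes. Members were the probe sets whose single gene symbol in the platform annotation begins with Twdl, Cpap, obst-, Cda, Idgf, or Cht and a digit, or is kkv, knk, rtv, serp, verm or Gasp. This rule gave 60 probe sets of 56 genes, out of 18769 probe sets and 11982 genes named by a probe set of 1 gene. No Cpap or rtv symbol was matched to a probe set, and these were not analysed here. One further probe set, assigned to CG4982 and Idgf4 together, was left out by the rule. The animals were Drosophila melanogaster of the outbred population LHm, kept at 25 °C, with no mutant allele, transgene or drug named in the labels. The 6 groups were females and males as larvae of the third instar, as pupae and as adults, each with 2 arrays and 10 pooled individuals per array, and no dissection is named. The labels do not give the age of the pupae or adults within their stage. Messenger RNA was read on Affymetrix Drosophila Genome 2.0 arrays, and all values are log2 expression values from RMA, the authors' procedure for background, normalization and probe summary.

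Chitin, a polymer of N-acetylglucosamine, is the fibre of insect cuticle, of the lining of the tracheae and of the peritrophic matrix that surrounds food in the gut. It is extruded at the apical cell membrane by the chitin synthase encoded by kkv, and is then modified by deacetylases and bound by cuticle proteins, among them proteins with peritrophin-type chitin-binding domains and the Tweedle family. At each moult and at metamorphosis the old cuticle is digested by chitinases while a new one is laid down. The Idgf proteins belong to the same fold family as chitinases but are growth factors without chitinase activity.

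Differences below are log2 differences ± standard error from limma, fitted to all 12 arrays, and a member counts as called where its p, adjusted by Benjamini-Hochberg over all 18769 probe sets, is under 0.05. In RNA of many tissues together, fewer cells of a type and less RNA per cell cannot be told apart. Marker genes bore out the labels of larvae, of adults and of males. Sgs3 and Sgs5 of the larval salivary gland were high in larvae, and all 3 yolk protein genes and the 4 measured ovary genes in adult females. All 6 testis genes were high in males of every stage, and all 5 accessory gland genes in adult males. The 4 measured genes of pupal and adult cuticle did not mark pupae in this way. From larva to pupa 0 of them were called higher and 2 lower in females, and 1 and 2 in males. The female minus male difference had a median over all probe sets of 0.23 in larvae, 0.37 in pupae and 0.21 in adults. As a level without expression, the 90th percentile of 6 probe sets of Y-linked genes on female arrays was taken, which was 4.85. The highest group mean was above it for 59 of the 60 members, and for 84.6% of all probe sets, so that this level removes little. The exception was TwdlS, with values between 4.0 and 4.7 on every array. TwdlB and TwdlF were above this level on 1 array only, female adults replicate 1 (6.30 and 5.73). One array stood apart for the Tweedle genes: on female adults replicate 1 several of them were higher than on replicate 2, and results that rest on it are given with and without it.

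Most of the members, like most probe sets, differed by 2-fold or more between groups, but few of these members were highest in adults. For 47 of the 60 members the highest and lowest group means differed by at least 1 on the log2 scale, which is 2-fold. That is 78.3% of the members, beside 63.7% of all probe sets. Of these 47, 21 were highest in larvae, 24 in pupae and 2 in adults. Of all 11965 probe sets with such a range, 18.7% were highest in larvae, 32.4% in pupae and 48.9% in adults. From larvae to pupae 18 members were called higher and 19 lower in females, where 25.7% and 19.6% of all probe sets were called. In males 17 were called higher and 19 lower, beside 27.2% and 21.2%. From pupae to adults 22 were called lower and 4 higher in females (all probe sets 27.2% and 27.2%), and 20 and 11 in males (32.2% and 18.8%). Adults set directly against larvae had 36 members lower and 1 higher in females (all probe sets 24.3% and 28.2%), and 30 lower and 4 higher in males (32.2% and 24.3%). These stage comparisons share arrays, so their counts are not independent of each other.

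**Figure D1:**
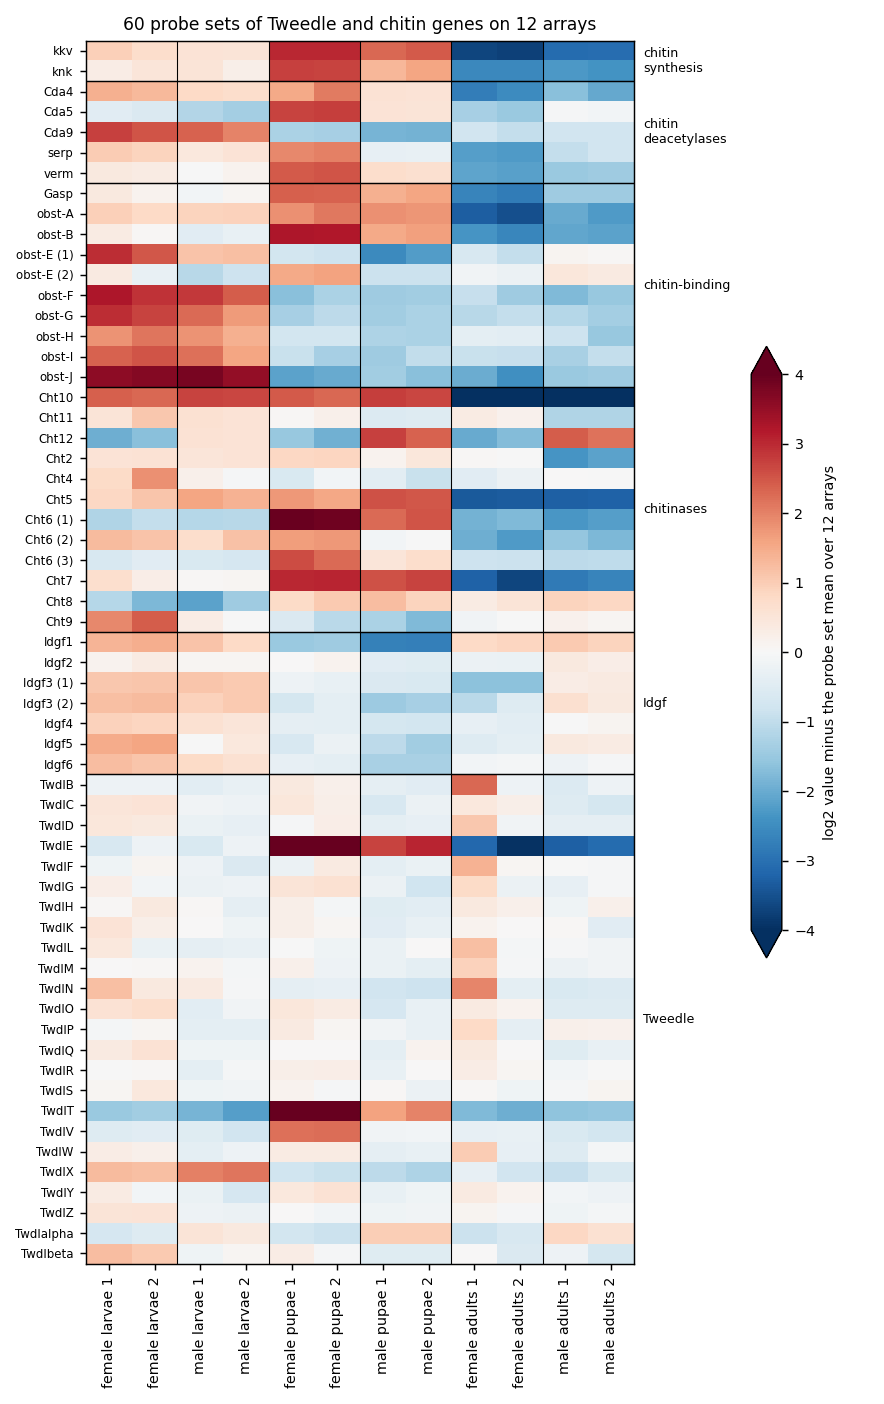
Each row is 1 of the 60 member probe sets and each column 1 of the 12 arrays, with colour for the log2 value minus the mean of the probe set over all arrays, and numbers after a name mark several probe sets of 1 gene. The chitin synthesis genes, 4 of 5 deacetylases and Gasp, obst-A and obst-B are highest in pupae, which for serp and Cda4 holds in females only. The genes obst-F to obst-J are highest in larvae, and 7 Tweedle genes are higher on female adults replicate 1 than on replicate 2.

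The chitin synthase gene kkv and its partner knk were highest in pupae and lowest in adults, in both sexes. The values of kkv were 10.46 and 10.20 in female larvae, 10.05 and 10.02 in male larvae, 12.52 and 12.50 in female pupae, 11.80 and 11.95 in male pupae, 5.82 and 5.77 in female adults and 6.43 and 6.45 in male adults. No array of 1 stage overlapped with an array of another, and the adult values lay far below the rest. From larvae to pupae kkv rose by 2.18 ± 0.11 (adjusted p = 3.38e-08) in females and 1.84 ± 0.11 (adjusted p = 1.39e-07) in males. From pupae to adults it fell, with a difference of -6.71 ± 0.11 in females, which is 105-fold, and -5.44 ± 0.11 in males. The gene knk encodes a protein that protects newly made chitin from chitinases, as known from the beetle Tribolium, and organises chitin in the Drosophila trachea. It measured 9.28 and 9.47 in female larvae, 9.50 and 9.23 in male larvae, 11.73 and 11.70 in female pupae, 10.33 and 10.56 in male pupae, 6.40 and 6.42 in female adults and 6.69 and 6.61 in male adults. Here too the pupal arrays were above all larval arrays and the adult arrays below them. Its rise into the pupa was 2.34 ± 0.12 in females and 1.08 ± 0.12 in males, and its difference from pupa to adult was -5.30 ± 0.12 and -3.79 ± 0.12.

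Chitin deacetylases remove acetyl groups from the fibre, and serp and verm are known for limiting the length of tracheal tubes. In females serp, verm and Cda5 rose into the pupa and all 4 cuticle-type members (serp, verm, Cda4 and Cda5) fell into the adult. The values of serp were 11.50 and 11.39 in female larvae, 10.91 and 11.04 in male larvae, 12.41 and 12.49 in female pupae, 10.17 and 10.20 in male pupae, 8.30 and 8.23 in female adults and 9.55 and 9.72 in male adults. In females it rose by 1.01 ± 0.10 (adjusted p = 1.11e-05) from larva to pupa, whereas in males it fell, with a difference of -0.79 ± 0.10 (adjusted p = 6.49e-05). The neighbouring gene verm measured 10.23 and 10.19 in female larvae, 9.84 and 10.01 in male larvae, 12.30 and 12.36 in female pupae, 10.58 and 10.50 in male pupae, 7.75 and 7.69 in female adults and 8.39 and 8.44 in male adults. It rose in both sexes, by 2.12 ± 0.09 in females and 0.61 ± 0.09 in males, and fell into the adult (-4.61 ± 0.09 and -2.13 ± 0.09). For Cda5 the values were 7.58 and 7.46 in female larvae, 6.88 and 6.68 in male larvae, 10.77 and 10.81 in female pupae, 8.61 and 8.58 in male pupae, 6.71 and 6.58 in female adults and 8.00 and 7.94 in male adults. Its larval and adult arrays lay below the pupal ones in both sexes, and it differed from pupa to adult by -4.14 ± 0.10 in females but only by -0.63 ± 0.10 in males. In adult males Cda5 remained above male larvae (1.18 ± 0.10), whereas in adult females it was below female larvae (-0.88 ± 0.10).

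The remaining deacetylases had other courses. Cda4 was not called between larvae and pupae of either sex (0.45 ± 0.18 with adjusted p = 0.0677, and -0.18 ± 0.18 with adjusted p = 0.477) and fell into the adult (-4.44 ± 0.18 and -2.44 ± 0.18). Cda9 belongs to a group of deacetylases that in Tribolium is made in the gut. It measured 9.94 and 9.72 in female larvae, 9.57 and 9.20 in male larvae, 5.93 and 5.87 in female pupae, 5.34 and 5.33 in male pupae, 6.44 and 6.24 in female adults and 6.45 and 6.43 in male adults. The larval arrays were all above the others, and the step into the pupa was -3.93 ± 0.14 in females and -4.05 ± 0.14 in males. From pupa to adult Cda9 rose by 1.10 ± 0.14 in males, and the female rise of 0.44 ± 0.14 (adjusted p = 0.0174) was no longer called without female adults replicate 1 (0.34, adjusted p = 0.12) or without female pupae replicate 2 (0.41, adjusted p = 0.0694).

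**Figure D2:**
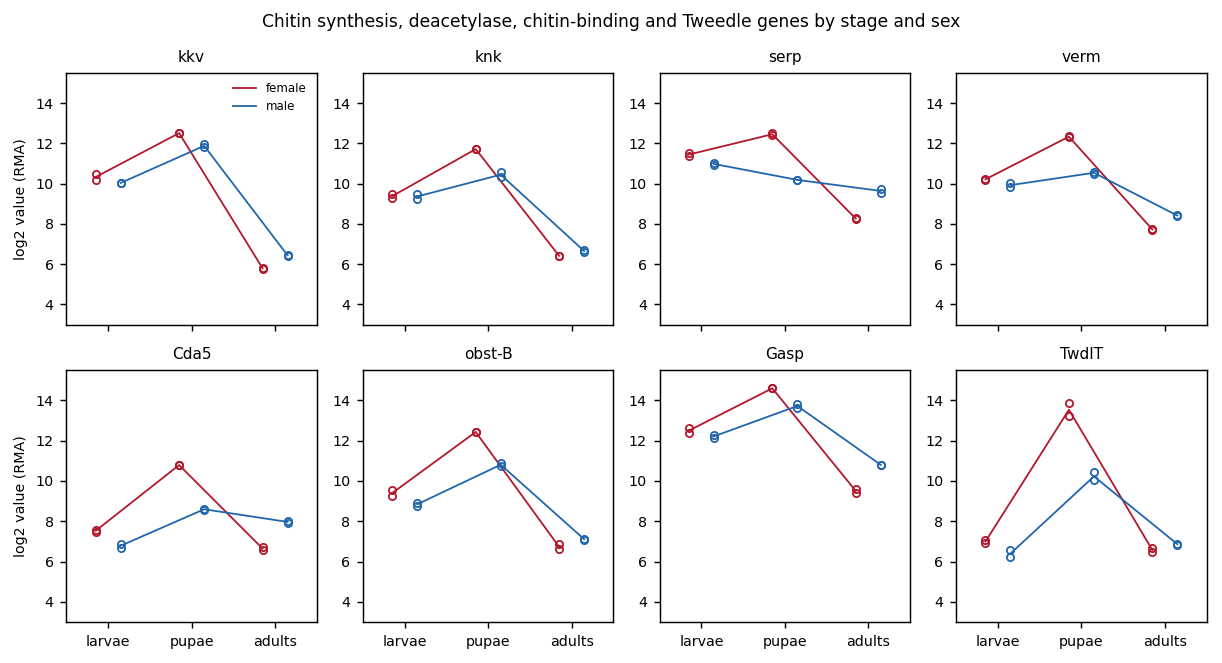
The log2 value (RMA, vertical axis) of 8 genes is plotted against stage, with an open circle per array and a line through the group means of females (red) and males (blue). All 8 genes fell from pupa to adult in both sexes, female pupae lay above male pupae, and serp is the only one of the 8 that fell from larva to pupa in males.

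Genes for proteins with peritrophin-type chitin-binding domains split into a pupal and a larval set. Gasp, obst-A and obst-B, whose products lie in tracheal and epidermal cuticle, were highest in pupae. Gasp measured 12.63 and 12.37 in female larvae, 12.12 and 12.31 in male larvae, 14.61 and 14.59 in female pupae, 13.64 and 13.80 in male pupae, 9.59 and 9.42 in female adults and 10.81 and 10.79 in male adults. Values ran near the upper end of the array's range in pupae, and every adult array was below every larval one. Its rise into the pupa was 2.10 ± 0.12 in females and 1.51 ± 0.12 in males. For obst-B the values were 9.54 and 9.26 in female larvae, 8.77 and 8.91 in male larvae, 12.45 and 12.42 in female pupae, 10.74 and 10.87 in male pupae, 6.85 and 6.60 in female adults and 7.14 and 7.07 in male adults. It rose by 3.03 ± 0.13 in females and 1.96 ± 0.13 in males, and its difference from pupa to adult was -5.71 ± 0.13 and -3.70 ± 0.13. The product of obst-A forms a scaffold for new chitin in the larval cuticle. Its gene was already high in larvae (12.46 and 12.29 in female larvae and 12.40 and 12.41 in male larvae) and rose by 1.09 ± 0.13 in females and 0.89 ± 0.13 in males before it differed by -5.38 ± 0.13 and -3.93 ± 0.13 from pupa to adult.

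By contrast obst-F, obst-G, obst-H, obst-I and obst-J were high in larvae alone. The values of obst-J were 10.17 and 10.26 in female larvae, 10.39 and 10.10 in male larvae, 4.46 and 4.59 in female pupae, 5.19 and 4.91 in male pupae, 4.60 and 4.12 in female adults and 5.10 and 5.18 in male adults. All 4 larval arrays were above 10 and all other arrays below 5.3. From larva to pupa obst-J differed by -5.70 ± 0.17 (adjusted p = 6.76e-10) in females and -5.19 ± 0.17 (adjusted p = 1.35e-09) in males. The same step was -4.54 and -4.03 for obst-F, -4.03 and -3.31 for obst-G, -3.54 and -3.10 for obst-I, and -2.69 and -2.86 for obst-H. None of the 5 was called between pupae and adults in either sex, and the pupal and adult values of obst-F, obst-G, obst-H and obst-I, between 3.7 and 4.9, were close to the level of Y-linked genes on female arrays. The female pupal and adult means of obst-J were below that level too. Such low values limit the size of a measured difference.

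Different probe sets of obst-E gave different courses. The brighter one measured 10.99 and 10.52 in female larvae, 9.18 and 9.25 in male larvae, 7.29 and 7.21 in female pupae, 5.47 and 5.79 in male pupae, 7.38 and 7.09 in female adults and 8.14 and 8.09 in male adults. It was highest in larvae and differed by -3.51 ± 0.17 in females and -3.59 ± 0.17 in males on the step into the pupa. The other measured 8.28 and 7.60 in female larvae, 6.81 and 7.09 in male larvae, 9.43 and 9.53 in female pupae, 7.06 and 7.05 in male pupae, 7.78 and 7.69 in female adults and 8.37 and 8.27 in male adults. On this probe set obst-E rose into the pupa in females (1.54 ± 0.19, adjusted p = 4.7e-05), while the difference in males was 0.11 ± 0.19 (adjusted p = 0.694, interval -0.31 to 0.52). In males both probe sets rose from pupa to adult (2.49 ± 0.17 and 1.26 ± 0.19). The obst-E gene makes transcripts that differ in their coding exons. The transcripts that each probe set reads were not looked up.

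**Figure D3:**
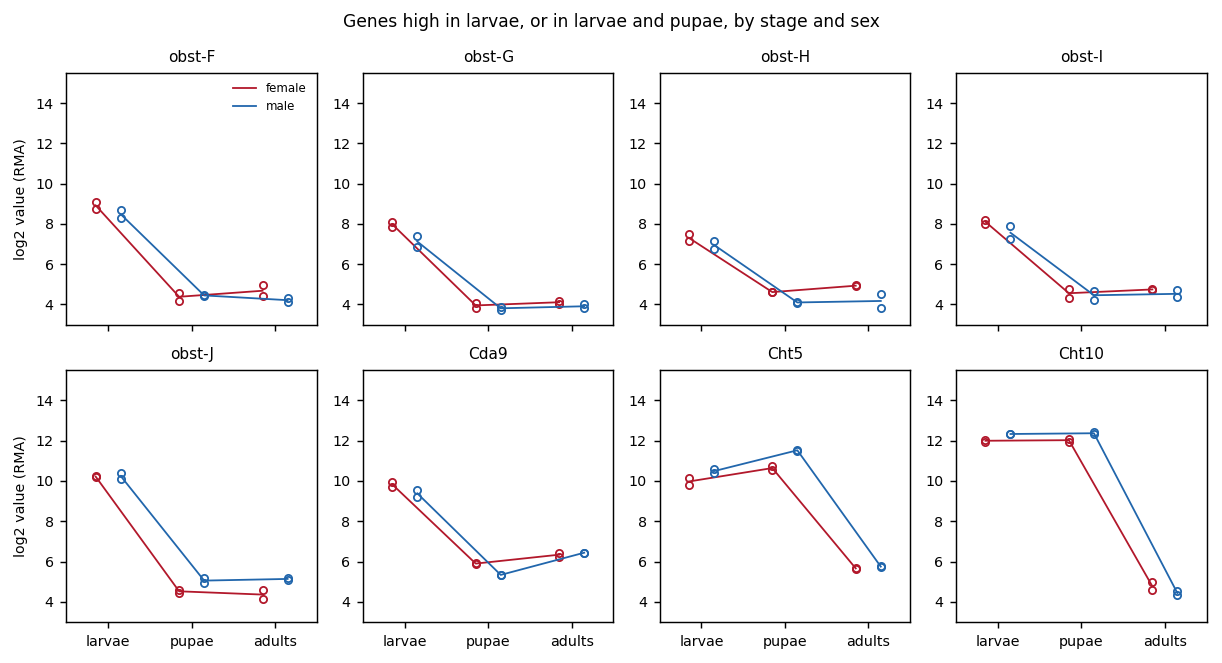
The log2 value (RMA, vertical axis) of 5 obst genes, Cda9, Cht5 and Cht10 is plotted against stage, with an open circle per array and a line through the group means of females (red) and males (blue). The obst genes and Cda9 drop from larva to pupa and stay low, whereas Cht5 and Cht10 stay high in pupae and are low in adults.

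Chitinases cut the fibre. Cht5, Cht7 and Cht10, homologues of genes that act at moults in Tribolium, were high in larvae and pupae and low in adults. Cht10 measured 12.04 and 11.95 in female larvae, 12.35 and 12.31 in male larvae, 12.11 and 11.94 in female pupae, 12.41 and 12.32 in male pupae, 4.98 and 4.56 in female adults and 4.52 and 4.35 in male adults. Its larval and pupal arrays lay together near 12, and the adult arrays were at or below 5.0. From pupa to adult it differed by -7.25 ± 0.14 (adjusted p = 3.7e-11) in females and -7.93 ± 0.14 (adjusted p = 1.17e-11) in males. The adult means of Cht10 lie below the level of Y-linked genes on female arrays, 4.85, so that the size of these differences is limited by that level and the sexes cannot be set against each other in it. Between larvae and pupae it did not pass the test, at 0.03 ± 0.14 with an interval of -0.28 to 0.33 in females and 0.04 ± 0.14 with an interval of -0.27 to 0.34 in males. Cht5 rose into the pupa by 0.67 ± 0.12 in females and 1.04 ± 0.12 in males and then differed by -4.98 ± 0.12 and -5.78 ± 0.12. Cht7 rose by 2.55 ± 0.16 and 2.56 ± 0.16, then differed by -6.48 ± 0.16 and -5.36 ± 0.16.

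Cht6 was read by 3 probe sets. The brightest measured 6.88 and 7.13 in female larvae, 6.94 and 6.99 in male larvae, 12.04 and 11.98 in female pupae, 10.35 and 10.59 in male pupae, 6.19 and 6.31 in female adults and 5.74 and 5.87 in male adults. It rose into the pupa by 5.01 ± 0.12 (adjusted p = 1.75e-10) in females and 3.50 ± 0.12 (adjusted p = 2.42e-09) in males, and another rose by 3.00 and 1.22. The remaining Cht6 probe set rose by 0.51 in females and fell in males (adjusted p = 0.000469). All 3 were lower in adults than in pupae in both sexes, with differences between -5.76 and -1.60.

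Other chitinases had other courses. Cht8 measured 6.34 and 5.67 in female larvae, 5.36 and 6.06 in male larvae, 8.26 and 8.52 in female pupae, 8.73 and 8.37 in male pupae, 7.82 and 8.01 in female adults and 8.38 and 8.30 in male adults. It was higher in pupae than in larvae (2.39 ± 0.25 in females and 2.84 ± 0.25 in males) and remained above larvae in adults (1.91 ± 0.25 and 2.63 ± 0.25), and in females it was the only member called higher in adults than in larvae. Its neighbour Cht9 was highest in female larvae, with 9.25 and 9.74 in female larvae, 7.63 and 7.30 in male larvae, 6.75 and 6.24 in female pupae, 6.07 and 5.57 in male pupae, 7.19 and 7.32 in female adults and 7.51 and 7.41 in male adults. The step into the pupa was -3.00 ± 0.23 in females and -1.65 ± 0.23 in males. Cht2, which acts in the larval cuticle, fell less into the adult in females than in males, with the change of the sex difference called. Its values were 10.42 and 10.46 in female larvae, 10.35 and 10.42 in male larvae, 10.69 and 10.72 in female pupae, 10.01 and 10.33 in male pupae, 9.91 and 9.84 in female adults and 7.52 and 7.74 in male adults. From pupa to adult it differed by -0.83 ± 0.12 in females and -2.54 ± 0.12 in males. The same step of Cht11 was 0.12 ± 0.16 (adjusted p = 0.579) in females and -0.66 ± 0.16 (adjusted p = 0.00578) in males.

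Cht12 was the member with the largest sex difference at every stage. Its values were 5.69 and 5.99 in female larvae, 8.22 and 8.20 in male larvae, 6.14 and 5.71 in female pupae, 10.37 and 10.00 in male pupae, 5.63 and 5.90 in female adults and 10.06 and 9.83 in male adults. Female arrays of all stages lay between 5.5 and 6.2, and male arrays were above them from the larva onward. The female minus male difference was -2.37 ± 0.18 (adjusted p = 2.37e-06) in larvae, -4.26 ± 0.18 (adjusted p = 8.84e-09) in pupae and -4.18 ± 0.18 (adjusted p = 4.92e-09) in adults, that is 5.16-fold, 19.2-fold and 18.1-fold higher in males. In males it rose by 1.98 ± 0.18 into the pupa. The Tweedle gene Twdlalpha was also higher in males at each stage, with 5.88 and 6.04 in female larvae, 7.07 and 6.94 in male larvae, 5.84 and 5.70 in female pupae, 7.55 and 7.55 in male pupae, 5.70 and 5.93 in female adults and 7.40 and 7.18 in male adults, and female minus male differences of -1.04 ± 0.12, -1.78 ± 0.12 and -1.48 ± 0.12. Over the same arrays the mean of the 6 testis marker genes was 11.29 and 11.54 in male larvae, 13.14 and 13.15 in male pupae and 13.20 and 13.29 in male adults, against at most 5.71 on any female array. All 6 were called lower in females at each stage. The part of these markers' tissue in the levels of Cht12 and Twdlalpha was not tested.

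The Idgf genes, which encode secreted growth factors of imaginal disc cells made in fat body and hemocytes among other tissues, were mostly highest in female larvae and lowest in male pupae. The exceptions were Idgf2, highest in male adults, and the brighter Idgf3 probe set, lowest in female adults. All 7 Idgf probe sets were called lower in male pupae than in male larvae and 6 of 7 in females, and all 7 rose again from male pupae to male adults. Idgf1 measured 10.02 and 10.11 in female larvae, 9.79 and 9.47 in male larvae, 7.16 and 7.23 in female pupae, 5.96 and 5.93 in male pupae, 9.46 and 9.51 in female adults and 9.69 and 9.54 in male adults. The pupal arrays lay below all others, with differences of -2.87 ± 0.12 (adjusted p = 8.83e-09) and -3.68 ± 0.12 (adjusted p = 1.33e-09) into the pupa and 2.29 ± 0.12 and 3.67 ± 0.12 out of it, females first. Idgf6 measured 13.20 and 13.09 in female larvae, 12.74 and 12.58 in male larvae, 11.64 and 11.57 in female pupae, 10.69 and 10.68 in male pupae, 11.85 and 11.89 in female adults and 11.78 and 11.92 in male adults. Its steps were -1.54 ± 0.10 and -1.98 ± 0.10, then 0.27 ± 0.10 and 1.16 ± 0.10. The small female step from pupa to adult (adjusted p = 0.0425) was lost with the replicate number as a block (0.27, adjusted p = 0.0556), in a fit of the groups compared and without any 1 of its 4 arrays.

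In adults the brighter Idgf3 probe set was the Idgf member that set the sexes furthest apart. It measured 12.30 and 12.32 in female larvae, 12.32 and 12.27 in male larvae, 11.00 and 10.90 in female pupae, 10.64 and 10.61 in male pupae, 9.57 and 9.56 in female adults and 11.50 and 11.56 in male adults. In larvae the female minus male difference had a 95% interval of -0.18 to 0.21, whereas in adults it was -1.97 ± 0.09 (adjusted p = 5.65e-09). A dimmer Idgf3 probe set gave -1.31 ± 0.18 for the same comparison. The 5 hemocyte marker genes also moved: all 5 were called higher in female than in male larvae and in female than in male pupae, and all 5 lower in adult females. Their mean was 10.49 and 10.63 in female larvae, 9.84 and 9.99 in male larvae, 8.66 and 8.88 in female pupae, 8.00 and 8.03 in male pupae, 7.88 and 8.09 in female adults and 8.57 and 8.61 in male adults. Fat body markers were high in larvae and pupae of both sexes, with array means between 14.84 and 15.20, and between 7.08 and 7.94 in adults. The part of these tissues in the Idgf levels was not tested.

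Tweedle proteins are structural proteins of the cuticle found in insects, and a mutation of TwdlD gives the short and stout Tubby larva. Of the 24 Tweedle genes measured, 12 had group means that stayed within 1 of each other on the log2 scale, that is within 2-fold, and most values of the family lay between 4 and 7. The genes that moved strongly were TwdlT, TwdlE and TwdlV, which rose in pupae, and TwdlX, which was high in larvae. TwdlT measured 6.93 and 7.05 in female larvae, 6.58 and 6.21 in male larvae, 13.21 and 13.86 in female pupae, 10.03 and 10.43 in male pupae, 6.67 and 6.47 in female adults and 6.83 and 6.89 in male adults. Female pupae were far above all other groups, male pupae were next, and larvae and adults lay together below. It rose from larva to pupa by 6.54 ± 0.21 (adjusted p = 1.47e-09) in females and 3.83 ± 0.21 (adjusted p = 1.02e-07) in males, 93.2-fold and 14.3-fold, and differed by -6.96 ± 0.21 and -3.37 ± 0.21 from pupa to adult.

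TwdlE measured 7.15 and 7.59 in female larvae, 7.18 and 7.58 in male larvae, 12.34 and 12.61 in female pupae, 10.51 and 10.83 in male pupae, 4.64 and 3.86 in female adults and 4.53 and 4.72 in male adults. Its adult means were below the level of Y-linked genes on female arrays, which limits the size of its differences from adults. It rose into the pupa by 5.10 ± 0.25 in females and 3.29 ± 0.25 in males, and its difference from pupa to adult was -8.22 ± 0.25 and -6.04 ± 0.25. Unlike TwdlT, it was lower in adults than in larvae of both sexes (-3.12 ± 0.25 and -2.75 ± 0.25). TwdlV measured 4.70 and 4.77 in female larvae, 4.73 and 4.45 in male larvae, 7.41 and 7.46 in female pupae, 5.09 and 5.12 in male pupae, 4.89 and 4.91 in female adults and 4.62 and 4.49 in male adults, with female pupae well above the rest and male pupae slightly above it. Its rise into the pupa was 2.70 ± 0.11 in females and 0.52 ± 0.11 in males. The larval means of both sexes and the male adult mean of TwdlV were below the level of Y-linked genes on female arrays. This limits the size of its differences from these groups. The X-linked gene TwdlX measured 7.97 and 7.89 in female larvae, 8.70 and 8.82 in male larvae, 5.89 and 5.81 in female pupae, 5.64 and 5.45 in male pupae, 6.36 and 5.94 in female adults and 5.76 and 6.10 in male adults. It was highest in male larvae and differed by -2.08 ± 0.15 in females and -3.22 ± 0.15 in males on the step into the pupa. Its neighbours TwdlY and TwdlZ did not share this course: TwdlY was not called in any stage comparison, and TwdlZ was lower in female pupae and female adults than in female larvae (-0.58 ± 0.10 and -0.51 ± 0.10).

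Other runs of neighbouring Tweedle genes gave no called stage difference with all arrays. In the reference gene order TwdlM, TwdlP, TwdlB, TwdlL, TwdlO and TwdlK follow each other with no other protein-coding gene between, as do TwdlN, TwdlH, TwdlR, TwdlS and TwdlD, and TwdlF is next to TwdlG. None of these 13 genes was called between larvae and pupae, between pupae and adults or between larvae and adults, in either sex. TwdlN, for example, measured 6.17 and 5.36 in female larvae, 5.34 and 4.91 in male larvae, 4.60 and 4.63 in female pupae, 4.21 and 4.12 in male pupae, 6.90 and 4.57 in female adults and 4.36 and 4.42 in male adults. Its step from larva to pupa in females was -1.15 ± 0.56 (adjusted p = 0.128).

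Of the 7 Tweedle genes that set female adults replicate 1 apart from replicate 2, all but TwdlW lie in these runs. By over 1 on the log2 scale the arrays differed for 7 of 24 Tweedle probe sets, all higher on replicate 1, and for none of the other 36 members. Over all probe sets this was the case for 39 of 18769, or 0.208%, and in no other group did any Tweedle probe set differ by as much between its arrays. On replicate 1 and replicate 2, in that order, TwdlB read 6.30 and 3.81, TwdlN 6.90 and 4.57, TwdlW 6.26 and 4.93, TwdlF 5.73 and 4.41, TwdlL 6.42 and 5.12, TwdlD 6.82 and 5.59, and TwdlP 6.25 and 5.09. The median over the 24 Tweedle probe sets was 0.38 higher on replicate 1, beside 0.01 over all probe sets. From pupa to adult in females 3 Tweedle genes were called lower and 0 higher with both arrays, 8 lower and 0 higher without replicate 1, and 3 lower and 9 higher without replicate 2. From larva to adult in females 4 were called lower and 0 higher with both, 8 and 0 without replicate 1, and 4 and 9 without replicate 2. For single genes, the female minus male difference of TwdlB in adults was 1.42 ± 0.57 (adjusted p = 0.0474) with both arrays, 0.18 (adjusted p = 0.367) without replicate 1 and 2.66 (adjusted p = 3.47e-07) without replicate 2.

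**Figure D4:**
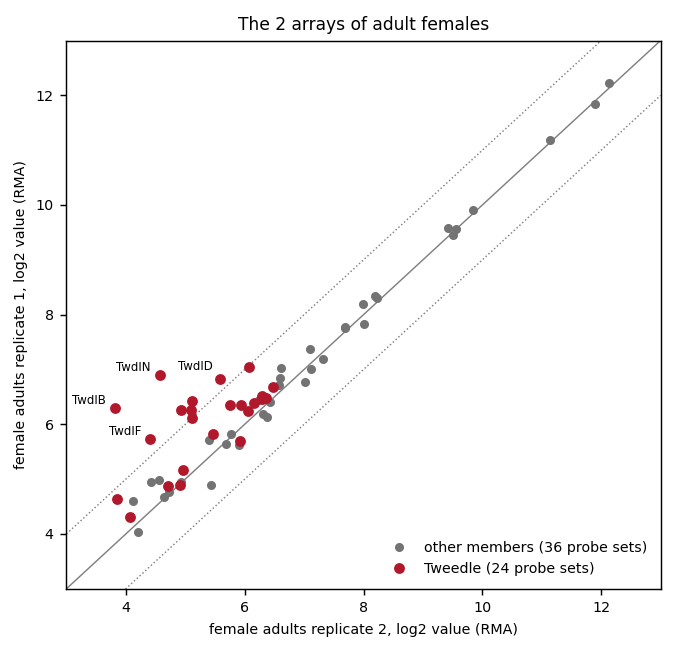
Each point is a member probe set, with its log2 value (RMA) on female adults replicate 2 on the horizontal axis and on replicate 1 on the vertical axis, the solid line for equal values and the dotted lines for a difference of 1. Of the 24 Tweedle probe sets (red), 7 lie above the upper dotted line, among them TwdlB, TwdlN, TwdlF and TwdlD, and none of the 36 others (grey) lies outside the lines.

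In larvae most sex differences of the members were under 2-fold, as over all probe sets, of which 9.86% were called at 2-fold or more. Of the 60 members 23 were called higher in females and 4 lower, beside 27.1% and 11.9% of all probe sets, and the median difference was 0.39 beside 0.23. After recentring, which sets the median shift of each array near 0, 11 were higher and 5 lower, whereas centring on the array median gave 48 and 3. The median over all probe sets moved as well, to 0.04 and 0.60. Without male larvae replicate 2 the count of members called was 17 in place of 27, the latter beside 39% of all probe sets called in either direction. Differences of at least 2-fold were found for 5 members higher and 2 lower in females (1.43% and 8.43% of all probe sets). Apart from Cht12 and Twdlalpha these were Cht9 (2.03 ± 0.23, adjusted p = 5.26e-05), the brighter obst-E probe set (1.54 ± 0.17), Idgf5 (1.32 ± 0.18), Twdlbeta (1.17 ± 0.22) and Cht4 (1.22 ± 0.30, adjusted p = 0.0107). Cht4 was no longer called without female larvae replicate 2 (0.70, adjusted p = 0.057) or without male larvae replicate 2 (1.10, adjusted p = 0.0699). Against the direction of most members TwdlX (-0.83 ± 0.15) and Cht5 (-0.51 ± 0.12) were lower in female larvae. Cht5 was not called under array-median centring (-0.14, adjusted p = 0.294), nor when replicate 1 of the larvae was left out in females (-0.36, adjusted p = 0.0674) or in males (-0.42, adjusted p = 0.0685).

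In pupae many of the genes that build cuticle were higher in females. Of the 60 members 36 were called higher in females and 5 lower, beside 51.9% and 14.3% of all probe sets, with a median difference of 0.57 beside 0.37. The counts were 36 and 4 after quantile normalization, 23 and 5 after recentring and 47 and 3 under array-median centring. In that order the median over all probe sets was 0.32, 0.10 and 0.74. After recentring the chitinases went from 7 higher to 3 and the Tweedle genes from 11 to 6, with 3 and 1 lower in both settings. At a 2-fold minimum 16 members were higher and 2 lower, against 4.11% and 10.4% of all probe sets. TwdlT was higher in female pupae by 3.31 ± 0.21 (adjusted p = 2.82e-07), TwdlV by 2.33 ± 0.11 and TwdlE by 1.81 ± 0.25. All 5 deacetylases were higher, led by serp (2.27 ± 0.10, adjusted p = 1.34e-08), Cda5 (2.19 ± 0.10) and verm (1.80 ± 0.09), and after recentring 4 of the 5 were. Among the chitin-binding genes obst-B was higher by 1.63 ± 0.13, the obst-E probe sets by 1.62 ± 0.17 and 2.43 ± 0.19 and Gasp by 0.88 ± 0.12, whereas obst-A did not pass the test (0.18 ± 0.13, adjusted p = 0.243). The synthesis genes knk (1.27 ± 0.12) and kkv (0.63 ± 0.11) were higher too. The 3 Cht6 probe sets gave 1.54, 1.77 and 1.86, and Idgf1, the Idgf gene with the largest difference, 1.25 ± 0.12. Each of the 7 Idgf probe sets passed in this direction, and 4 of them after recentring.

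A few members were lower in female pupae. Besides Cht12 and Twdlalpha these were Cht5 (-0.88 ± 0.12, adjusted p = 0.00019), obst-J (-0.53 ± 0.17, adjusted p = 0.0172) and Cht10 (-0.34 ± 0.14, adjusted p = 0.0472). Under array-median centring obst-J was not called (-0.16, adjusted p = 0.377) and Cht10 turned to 0.03. The call of Cht10 was also lost without any 1 of the 4 pupal arrays, and that of obst-J without female pupae replicate 1 or male pupae replicate 1. Markers of tissues that form in the pupa differed between the sexes on the same arrays: both measured eye genes, of 4 listed, were higher in female pupae, with means of 9.16 and 9.56 on the female arrays and 7.58 and 7.79 on the male arrays, and 2 of 3 muscle genes were higher, with means of 11.76 and 11.87 and 10.93 and 10.99. Of the 4 measured genes of pupal and adult cuticle 2 were higher and 1 lower in female pupae, with means of 5.99 and 6.03 and 6.12 and 6.18, and of the 2 measured tracheal genes 1 was higher and 1 lower, with means of 8.66 and 8.67 and 8.93 and 9.05. The part of these tissues in the sex differences of the members was not tested.

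In adults the direction was the reverse for many of the same genes, although the split depends on the scaling. With the deposited values 10 members were called higher in females and 20 lower, beside 39% and 26.6% of all probe sets, with a median difference of -0.03 beside 0.21. The counts were 16 and 16 after quantile normalization, 4 and 27 after recentring and 33 and 10 under array-median centring. In that order the median over all probe sets was 0.21, -0.04 and 0.68. It thus moved along with the member counts after recentring and under array-median centring, but stayed in place after quantile normalization. At a 2-fold minimum 3 were higher and 8 lower (20.5% and 17.9% of all probe sets). Lower in adult females were serp (-1.37 ± 0.10, adjusted p = 3.66e-07), Cda5 (-1.32 ± 0.10), Gasp (-1.30 ± 0.12), obst-A (-1.27 ± 0.13) and Idgf3 (given above). Of the deacetylases 4 of 5 were called lower in adult females, and 3 of 5 under both quantile normalization and array-median centring, where Cda4 was lost (-0.34 and -0.30) and 1 member was called higher. Of the 7 Idgf probe sets 5 were called lower and 0 higher, but 2 lower and 2 higher under array-median centring. Idgf4 was lower by the deposited values (-0.43 ± 0.09) but not under array-median centring (0.04, adjusted p = 0.728). The synthase gene kkv was lower in adult females (-0.64 ± 0.11, adjusted p = 0.000261), a call that was lost with quantile normalization (-0.23, adjusted p = 0.0739) and with array-median centring (-0.17, adjusted p = 0.158).

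Higher in adult females were Cht2 (2.25 ± 0.12, adjusted p = 2.8e-08), with 4.75-fold the male level, and Cht11 (1.45 ± 0.16, adjusted p = 1.31e-05). Among the 24 Tweedle genes the test called 6 higher and 1 lower in adult females. The count depends on the scaling, with 11 higher and 1 lower after quantile normalization, 20 and 1 under array-median centring, and 2 and 3 after recentring. The median over all probe sets moved too after recentring and under array-median centring, as given above for adults. After quantile normalization it stayed at 0.21, whereas the median of the Tweedle genes went from 0.37 to 0.73. Without female adults replicate 1 the counts were 2 higher and 3 lower, and without replicate 2 they were 13 and 1. TwdlC (0.95 ± 0.14) and TwdlO (0.76 ± 0.15) kept their calls under every alternative except the 2-fold minimum. Ovary genes were high in adult females: the mean of the 4 measured ovary genes was 13.81 and 13.89 on their arrays and at most 5.76 on any other. The part of ovarian RNA in the levels of the members was not tested.

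**Figure D5:**
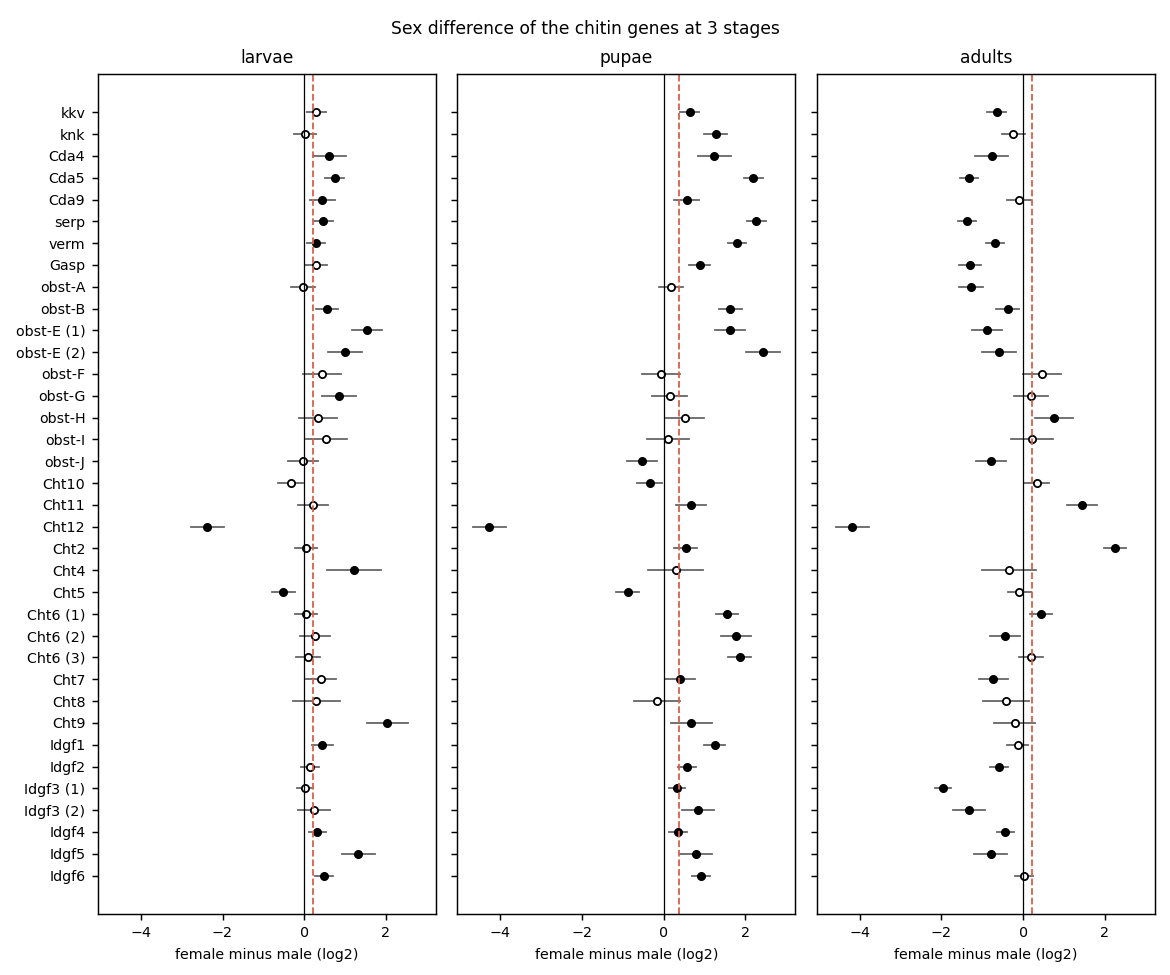
For the 36 member probe sets other than Tweedle, the female minus male log2 difference is plotted for larvae, pupae and adults with its 95% confidence interval from limma, filled where called and open where not, and the dashed line marks the median over all probe sets. Most deacetylase, chitin synthesis, Idgf and Cht6 points lie to the right in pupae, deacetylases and Gasp lie to the left in adults, and Cht12 lies far to the left at each stage.

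The change of the sex difference between stages was tested directly. From larva to pupa it was called toward females for 15 members and toward males for 4, beside 7.74% and 9.78% of all probe sets. At a 2-fold minimum 13 members moved toward females, against 2.3% of all probe sets. Those with the largest shift were TwdlT (2.71 ± 0.30, adjusted p = 0.00016), TwdlV (2.19 ± 0.15), TwdlE (1.82 ± 0.36) and serp (1.80 ± 0.14), and the largest shift toward males was that of Cht12 (-1.90 ± 0.26). From pupa to adult 27 members moved toward males and 4 toward females, beside 25.5% and 26.1% of all probe sets. The largest shifts toward males were those of serp (-3.64 ± 0.14, adjusted p = 1.37e-08), TwdlT (-3.60 ± 0.30) and Cda5 (-3.52 ± 0.15).

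Females could be above males as pupae and below them as adults for the same gene. Pupae and adults share no array, and 16 of the 60 members, of 14 genes, had both differences called, beside 10.3% of all probe sets. The count depends on the scaling: it was 12 after quantile normalization, 16 after recentring and 8 under array-median centring, and 11, 12 and 7 of these were among the 16. These 16 are 44.4% of the members higher in female pupae and 80% of those lower in female adults. Over all probe sets 1934 had both calls, out of 9745 with the pupal call and 4999 with the adult call. The pair was thus common outside the members too. The test of the change, which adds up the opposite differences, was nearly bound to call members picked in this way. It called all 16 members, which is therefore no separate evidence for them. They were kkv, the deacetylases serp, verm, Cda4 and Cda5, the chitin-binding genes Gasp, obst-B and obst-E (both probe sets), the chitinase Cht7, Idgf2, Idgf3 (both probe sets), Idgf4 and Idgf5, and 1 of the 3 Cht6 probe sets. That Cht6 probe set was lower in adult females (-0.44 ± 0.17, adjusted p = 0.0378), whereas the brightest one of Cht6 was higher (0.44 ± 0.12, adjusted p = 0.00763) and the remaining one was not called (0.19 ± 0.13, adjusted p = 0.227). Under array-median centring the adult call was lost, among others, for Cht7 (-0.25, adjusted p = 0.161), Idgf2 (-0.11, adjusted p = 0.31) and Idgf5 (-0.32, adjusted p = 0.101), beside Cda4, kkv and Idgf4 given above. Cda5, serp, verm, Gasp, obst-E and Idgf3 had at least 1 probe set with the opposite calls under each of the 3 other scalings. The reverse pair of calls was found for no member, beside 2.3% of all probe sets, and for at most 1 under the alternatives. Markers of other tissues had the same opposite pair of calls: in females against males all 5 hemocyte genes, both eye genes and 2 of 3 muscle genes were higher as pupae, and as adults every gene of these 3 lists was lower. In adults the means of the eye genes were 8.56 and 8.84 on female and 10.28 and 10.47 on male arrays, and those of the muscle genes 12.44 and 12.71 and 14.12 and 14.14. Their part in the result was not tested.

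Genes that act before and beside the members were read from lists of the chitin pathway. Of 8 genes that make UDP-N-acetylglucosamine, the building block of chitin, 3 fell and 3 rose from pupa to adult in females, and 3 fell and 4 rose in males. Over all probe sets 27.2% were called lower and 27.2% higher on this step in females, and 32.2% and 18.8% in males. Gfat1, the rate-limiting enzyme of the hexosamine pathway, differed by -3.31 ± 0.17 in females and -0.86 ± 0.17 in males, and Gnpnat, the acetyltransferase that follows it, by -2.36 ± 0.12 and -1.58 ± 0.12. The hexokinase gene Hex-C went the other way (3.56 ± 0.15 and 5.81 ± 0.15). In pupae 7 of the 8 genes were higher in females, among them Gfat1 (1.18 ± 0.17), beside 51.9% of all probe sets. In adults 5 were lower in females and 1 higher, beside 26.6% and 39%, with Gfat1 among the lower (-1.27 ± 0.17).

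The related genes exp and reb, whose products are needed for the deposition of chitin by kkv, took different courses. From larva to pupa exp rose by 2.27 ± 0.10 in females and 1.00 ± 0.10 in males, while reb differed by -3.98 ± 0.13 and -4.13 ± 0.13. The gut chitin synthase gene Chs2 was lower in pupae than in larvae (-0.97 ± 0.12 and -0.70 ± 0.12) and rose into the adult (1.03 ± 0.12 and 1.78 ± 0.12). From larva to pupa 19.6% of all probe sets were called lower and 25.7% higher in females, and 21.2% and 27.2% in males. Of 17 genes for the peritrophic matrix and chitin-binding mucins, 11 fell and 1 rose on this step in females. In males 12 of the 17 fell and 2 rose, and the medians were -2.73 in females and -4.22 in males. Among them Peritrophin-15a differed by -8.18 ± 0.22 and -8.79 ± 0.22. From pupa to adult 27.2% of all probe sets were called higher in females and 18.8% in males, where 27.2% and 32.2% were called lower. Of the 17 genes 8 rose on this step in females and 11 in males, where 3 and 2 fell. Peritrophin-A had the largest sex difference of this list in pupae, 4.09 ± 0.27 higher in females, and was lower in adult females (-0.93 ± 0.27). The hexosaminidase gene Hexo2, whose product completes the breakdown of chitin, rose into the pupa by 1.31 ± 0.11 in females and 1.01 ± 0.11 in males and fell into the adult (-2.34 ± 0.11 and -0.79 ± 0.11).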

How the data were processed

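The authors deposited 1 table of log2 values, 1 per probe set and array, made with RMA per the submitters' processing notes. No RMA version or option was named there. The 183 control probe sets were left out, which leaves 18769, and the number of arrays limits the precision. Of these, 13647 have 1 gene in the platform annotation, 402 several and 4720 none given here. Gene names and gene order came from RefSeq names of assembly Release 6, which held all 60 members, and none of its coordinates is printed. Groups came from the sample titles.

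A single limma fit (version 3.58.1, R 4.3.3) of 6 group means used all 12 arrays, with eBayes without trend, 6 residual and 4.1 prior degrees of freedom. It gave 11 comparisons, each adjusted over all probe sets by Benjamini-Hochberg. The replicates are called biological in the study's design. The fit was tested on simulated arrays with the mean and spread of each of 18769 probe sets and no difference between groups. In female larvae 100 probe sets were then changed by 1 on the log2 scale and 100 by 2. For the larval sex difference the fit recovered 82% and 99% of these changes, with 14 false calls. In the real larval comparison 39% of all probe sets were called, so that recovery there can differ.

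Probe sets were described singly, and the one with the highest mean stands for its gene unless another is named. Named were, per comparison and role, up to 4 called members in each direction with groups that do not overlap, and for changes of the sex difference the 4 with the largest change in each direction. Any member could be named beside these. The members, lists and recentring were chosen with earlier results of these data known. Replicate numbers did not pair arrays: deviations of same-numbered arrays correlated between -0.08 and 0.08 over the 15 pairs of groups.

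Alternatives were quantile normalization, array-median centring, recentring, leaving out dim probe sets, eBayes with trend and robust, fitting the compared groups alone, a block for replicate number, a 2-fold minimum, 1 probe set per gene, and each array left out.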

Additional observations from a re-analysis of the deposited data

Results flagged for a closer look

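The sex difference of several members changed between stages by the test of the change itself. From larva to pupa the female minus male difference moved toward females by 2.71 on the log2 scale in TwdlT, 2.19 in TwdlV, 1.82 in TwdlE and 1.80 in serp. It moved toward males in Cht12 (-1.90), Cht9 (-1.35), Twdlalpha (-0.73) and TwdlZ (-0.65). The call of Cht9 was lost without male larvae replicate 2 (adjusted p = 0.0583) or male pupae replicate 1 (adjusted p = 0.0609), and that of Twdlalpha without male larvae replicate 2 (adjusted p = 0.0557).

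From pupa to adult it moved toward males in serp (-3.64), TwdlT (-3.60), Cda5 (-3.52) and obst-E (-2.50). Toward females it moved in Cht2 (1.71), Cht5 (0.80), Cht11 (0.78) and Cht10 (0.68). The adult means of Cht10, 4.77 in females and 4.43 in males, lie below the level of Y-linked genes on female arrays. The sexes can therefore not be set against each other in this step of Cht10. The call of Cht11 was lost with quantile normalization (adjusted p = 0.0733), without female pupae replicate 1 (adjusted p = 0.0522) and without female adults replicate 1 (adjusted p = 0.0563), and that of Cht10 without male adults replicate 2 (adjusted p = 0.0526).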

How the results depend on the processing

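The count of members called stayed within 1.5 times its value in all 11 comparisons under quantile normalization, the filter on dim probe sets, the fit of the groups compared, eBayes with trend and robust, and 1 probe set per gene. In larvae, where 27 members differed between the sexes, the count was 51 under array-median centring, 16 after recentring, 7 at a 2-fold minimum, and 17 to 24 when 1 larval array was left out. At a 2-fold minimum it was 18 of 41 in pupae and 11 of 30 in adults. With the replicate block, which the check of replicate numbers did not bear out as a pairing, counts stayed within 1.5 times and of 236 named differences only the step of Idgf6 from female pupae to adults (0.27, adjusted p = 0.0556) lost its call. Of these 236 differences 198 kept direction and call under every alternative other than the 2-fold minimum, and 2 changed sign, both under array-median centring: Cht10 in pupae (0.03) and Idgf4 in adults (0.04). The cause was not tested. With 1 array of a group left out, the lone array was assumed to vary like the others. For members near the level of Y-linked genes on female arrays, low signal limits what can be seen.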

Other observations

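Among the 39 probe sets that differed by over 1 on the log2 scale between the arrays of adult females, 7 were Tweedle genes, as given above. The largest gap of all was that of Lcp65Ag3, a larval cuticle protein gene, with 7.05 and 4.31 on replicate 1 and replicate 2. Cpr92F (8.21 and 6.42) and Acp65Aa (10.53 and 9.31), cuticle protein genes outside the members, differed in the same direction. All of these were picked after their values were seen. Of the 39 probe sets 26 were higher on replicate 1 and 13 on replicate 2. The labels give no difference between these arrays beyond the replicate number.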
